A study of Mus musculus with 6 samples.

Results

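The genes examined here are 41 genes of regulated secretion, taken as a fixed list of 13 synaptotagmins, 6 SNARE proteins and complexins, 12 vesicle proteins, 5 active zone proteins and 5 granins. All 41 were among the 27998 genes measured, and 40 had at least 50 UMIs (unique molecular identifiers, each standing for 1 captured transcript) over all cells. The exception was Syt6, with 30. The data come from droplet single-cell RNA-seq of polyA RNA (10x Genomics 3′ v2) of mouse retinas at embryonic day 14. They hold 67050 cells in 6 libraries, 2 in each of 3 groups. The Atoh7 mutant (titled Bax het Atoh7 null) was heterozygous for a Bax mutation and lacked Atoh7. The Bax mutant (titled Bax null) lacked Bax, and its labels name no Atoh7 mutation. The double mutant (titled Bax null Atoh7 null) lacked both genes. No group had both genes intact, so the Bax mutant served as the control for Atoh7 without being wild type. Atoh7 is a basic helix-loop-helix factor of neurogenic retinal cells that most ganglion cells need, and Bax acts in the mitochondrial route to programmed cell death. Atoh7 had 376 and 458 UMIs in the Bax mutant libraries and 0 in the other 4. The labels did not give the strain, nor whether the 2 libraries of a group came from separate animals, so the p-values measure the spread between libraries, which may be technical.

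Release of transmitter and of peptide hormones uses one core machine. Vesicle VAMP pairs with syntaxin and SNAP25 of the plasma membrane to form the SNARE complex, complexin clamps and primes it, and a synaptotagmin on the vesicle senses calcium. Munc13, RIM, Bassoon and Piccolo hold vesicles at the active zone. Small clear vesicles carry synaptophysins, SV2 proteins, synapsins and Rab3, whereas granins fill the dense core of secretory granules. In the embryonic retina, ganglion cells, cones and horizontal cells are born early from progenitors, by way of a neurogenic state, and their synapses form later.

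The cells carried 5 of the authors' labels: retinal progenitor cells, neurogenic cells, ganglion cells, cones and horizontal cells. A library held 257 to 1772 cells with each of the ganglion, cone or horizontal labels, and the UMIs summed per library ranged from 826841 to 1491426 in the horizontal label, from 890484 to 1384550 in cones, from 1913889 to 10906998 for the ganglion label, from 4416522 to 14099758 for the neurogenic label and from 14053912 to 38954120 in progenitors. A count of 0 allows up to 3 UMIs, or 3.63, 3.37, 1.57, 0.679 and 0.213 CPM (UMIs of a gene scaled to the same total in every sum) in the smallest library of those labels. The ganglion label in each library held 9528 to 14802 CPM of 13 ganglion cell markers summed, and the cone label 4656 to 5924 CPM of 10 cone markers. The horizontal label held 1624 to 3013 CPM of horizontal markers but also 1166 to 1757 CPM of amacrine markers, and is called by its label only.

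Several libraries stood apart. The Bax mutant libraries had a median of 5661 and 6804 UMIs per cell against 1634 to 2632 in the others, and mt-Atp6 stood at 8740 and 9020 CPM there against 3.74 to 4.55 CPM elsewhere. The Atoh7 contrast therefore cannot be told apart from this difference between libraries. The library labelled double mutant replicate 1 held 47.7 CPM of Bax, against 11 to 17.1 in the other libraries labelled Bax null and 108 to 144 in the Atoh7 mutant libraries. The reason was not tested. That library shared 2596 cell barcodes with replicate 2 (17.6% and 22% of their cells), 89.4% of them under the same label in both, whereas the other pairs of libraries shared 126 to 223. Results are therefore also given without the shared barcodes or without that replicate.

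Release genes were spread over all 3 fates at this age and no fate held the whole set. By the mean of the 6 libraries, 18 of the 41 genes had their highest level in ganglion cells, 13 in cones and 8 under the horizontal label. Syt17, a synaptotagmin without a membrane anchor, was highest in neurogenic cells, and Syt12 in progenitors at no more than 0.569 CPM. These levels are descriptions without a test, since the labels came from clusters of the same cells and genes. Of the 40 genes with enough UMIs, 31 stood above progenitors in every library in ganglion cells, where 30.8% of all 14470 genes did so. The same count was 27 under the horizontal label (25.7% of all genes), 22 in cones (29.3%) and 23 for the neurogenic label (25.8%). Leaving out the shared barcodes left these 4 counts as they were. Leaving out cells scored as doublets, which made up 13.0% to 19.9% of neurogenic cells in a library, lowered the neurogenic count to 20, without Syt1, Synpr, Syn1 and Bsn and with Scg2.

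**Figure D1:**
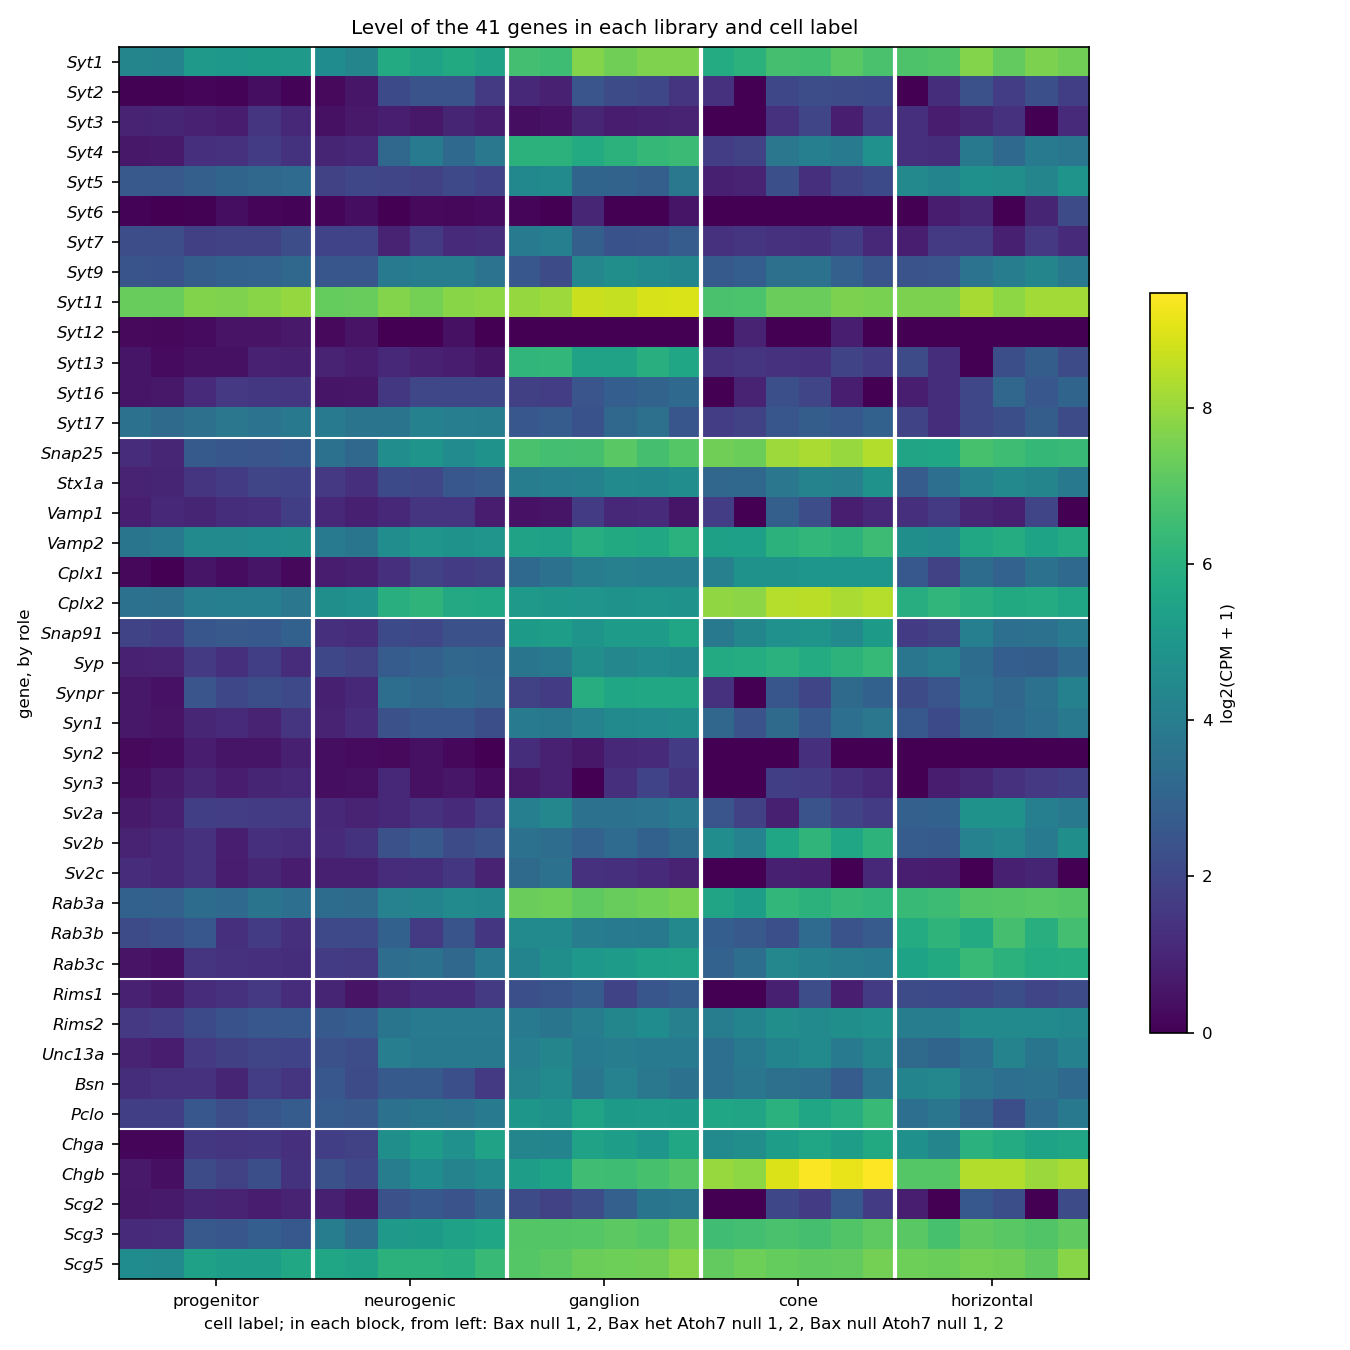
Level of each of the 41 genes (rows, by role) in each library (columns, in 5 blocks by cell label), as log2(CPM + 1). Syt11 is high in every block, Syt13 is high in the ganglion block only, Snap25, Cplx2 and Chgb are highest in the cone block, and Rab3b in the horizontal block.

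Some members differed in level between ganglion cells and cones. In every library 16 of 40 genes were higher in ganglion cells than in cones, against 14.6% of all genes. In cones 8 were higher, against 21.1% of all genes, which is no excess of the set. The 16 were Syt1, Syt4, Syt5, Syt7, Syt11, Syt13, Syt16, Snap91, Synpr, Syn1, Sv2a, Rab3a, Rab3b, Rab3c, Scg2 and Scg3. The 8 were Snap25, Syp, Sv2b, Cplx1, Cplx2, Rims2, Pclo and Chgb. The ganglion side held the 3 Rab3 genes and 7 of the 13 synaptotagmins, and the cone side both complexins, synaptophysin and the active zone scaffold Piccolo. With doublets left out, 15 were higher in ganglion cells, without Syt16 and Scg3 and with Rims1. Against the horizontal label, 12 genes were higher in ganglion cells (10.7% of all genes) and 4 lower (13.9%). The 4 were Cplx2, Rab3b, Rab3c and Chgb, also no excess over all genes.

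Among the synaptotagmins, Syt1, the fast sensor of synaptic vesicles, was broadly on. It measured 210 and 171 CPM in ganglion cells of the Atoh7 mutant, 99.5 and 92.2 in the Bax mutant and 197 and 199 in the double mutant. Under the horizontal label the range was 112 to 206 CPM, and the ranges over libraries overlapped. Syt13 (chr2:92915098-92956058, plus strand, GRCm38), a synaptotagmin that does not bind calcium, was high in ganglion cells and low under every other label: 43.3 and 43.4 CPM in the Atoh7 mutant, 74.6 and 76.2 in the Bax mutant, and 59.7 and 47.5 in the double mutant. No library exceeded 5.96 CPM of Syt13 under any other label. Syt4, which resides on dense core granules, measured 54.9 to 87.0 CPM in ganglion cells, and no more than 27 CPM elsewhere. Syt11, another non-calcium-binding member, was the broad one, at 248 to 487 CPM in ganglion cells and still 152 to 246 CPM in progenitors. Syt3, Syt6 and Syt12 stayed at or below 3.63 CPM under every label.

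The SNARE gene Snap25 (chr2:136713453-136782428, plus strand, GRCm38) was highest in cones in all 6 libraries. Here cones held 270 and 310 CPM in the Atoh7 mutant, 171 and 163 in the Bax mutant, and 257 and 331 in the double mutant. Ganglion cells held 98.6 to 132 CPM, the horizontal label 45.5 to 103 CPM, neurogenic cells 8.01 to 28.7 CPM and progenitors 1 to 5.35 CPM. The cone range lay above every other range, and those of ganglion cells and the horizontal label overlapped. Cplx2 (chr13:54371349-54383917, plus strand), a complexin, was more cone-biased still, at 338 and 360 CPM in the Atoh7 mutant, 234 and 225 in the Bax mutant, and 310 and 339 in the double mutant. In neurogenic cells it reached 24.9 to 70.5 CPM, and in ganglion cells 27.2 to 32.6 CPM. Stx1a and Vamp2, the partner SNAREs, had overlapping ranges in the 3 fates, with Vamp2 at 42.2 to 64.6 CPM in ganglion cells and 39.4 to 88.7 CPM in cones.

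Vesicle proteins split by isoform. Among the Rab3 GTPases, which tether vesicles, Rab3a was highest in ganglion cells (137 to 187 CPM) and Rab3b (chr4:108879063-108943324, plus strand) under the horizontal label. There Rab3b measured 54.6 and 101 CPM in the Atoh7 mutant, 56.4 and 69.7 in the Bax mutant, and 61.6 and 99.2 in the double mutant, against at most 21.9 CPM elsewhere. Rab3c was also highest there, at 44.1 to 81.8 CPM. Among the SV2 glycoproteins, Sv2b was highest in cones (17.5 to 71.8 CPM). Synaptophysin, Syp, measured 54.8 to 80.9 CPM in cones and at most 24.6 CPM elsewhere. Of the synapsins, which tie vesicles to actin, Syn1 reached 13.3 to 25 CPM in ganglion cells, while Syn2 and Syn3 stayed at or below 2.79 CPM.

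At the active zone, Pclo was highest in cones (45.5 to 84.2 CPM) and next in ganglion cells (27.6 to 45.5 CPM). Rims2, a RIM scaffold, and Unc13a, a Munc13 priming factor, had overlapping ranges in ganglion cells, cones and the horizontal label. Bsn, encoding Bassoon, measured 8.47 to 20.1 CPM under the horizontal label and 10.5 to 21.3 CPM in ganglion cells.

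Granins differed in their spread over the fates. Chgb (chr2:132781278-132795079, plus strand), a granin that aggregates in the granule core, measured 502 and 682 CPM in cones of the Atoh7 mutant, 257 and 231 in the Bax mutant, and 563 and 706 in the double mutant. The horizontal label came next at 125 to 329 CPM, then ganglion cells at 38.6 to 121 CPM, neurogenic cells at 3.19 to 23.4 CPM and progenitors at 0.308 to 3.83 CPM, an order that held within each library. Scg3 (chr9:75643189-75684056, minus strand), which binds Chga to the granule membrane, was high in all 3 fates: 120 to 160 CPM in ganglion cells, 103 to 140 CPM under the horizontal label and 94.2 to 139 CPM in cones. Scg5, a chaperone of prohormone convertase 2, likewise lay between 124 and 220 CPM in all 3.

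**Figure D2:**
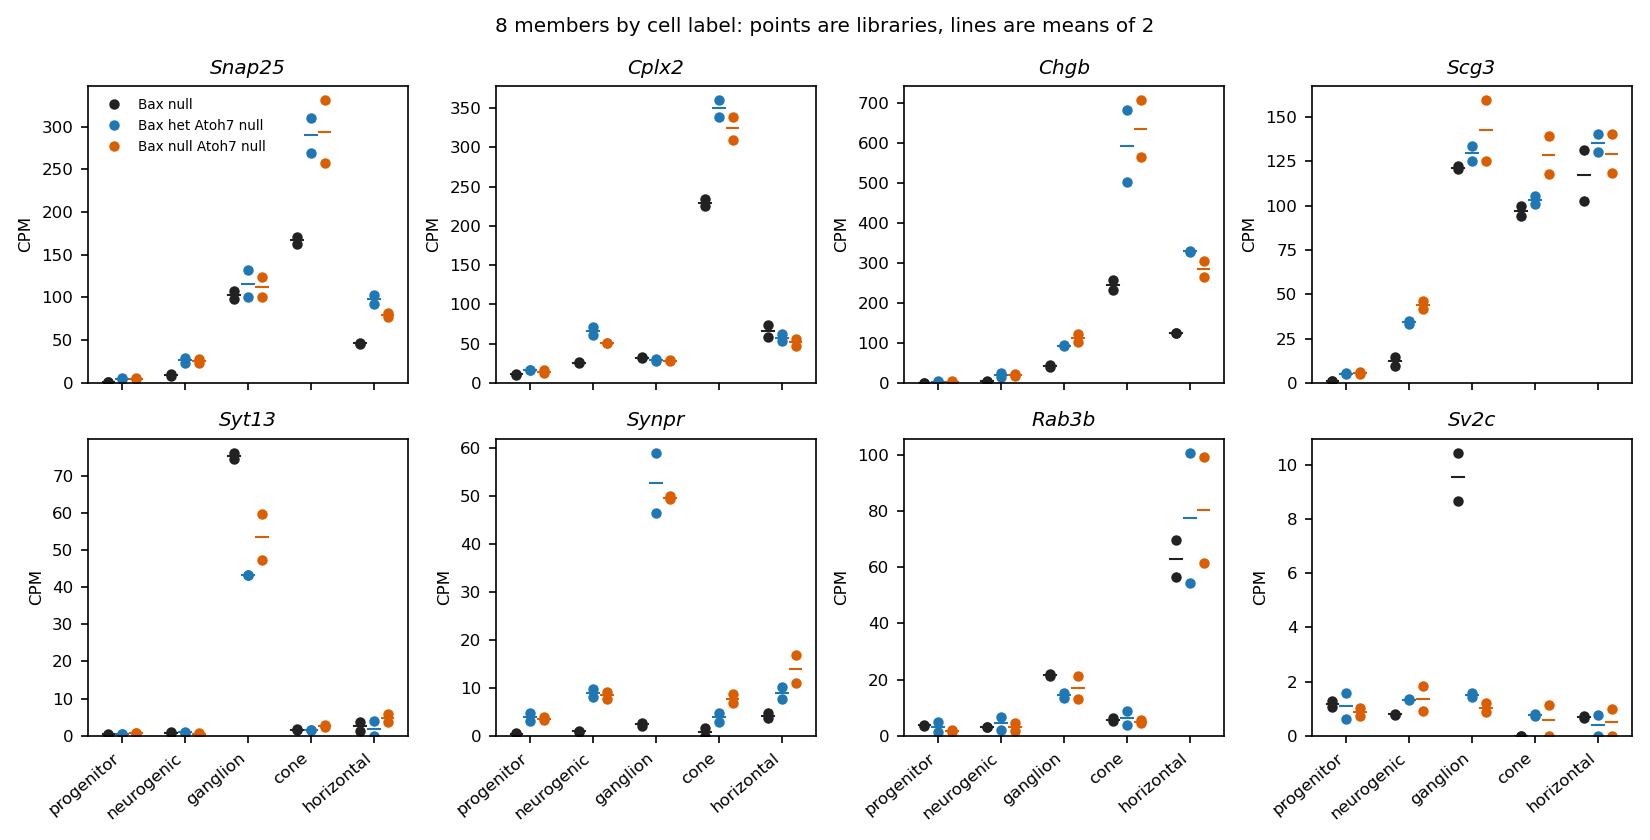
CPM of 8 genes by cell label. Points are libraries coloured by genotype group, and lines are means of 2 libraries. Snap25, Cplx2 and Chgb peak in cones, Syt13 in ganglion cells and Rab3b under the horizontal label. Synpr peaks in ganglion cells of the Atoh7 null groups only, and Sv2c stands out in ganglion cells of the Bax mutant only.

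Promoters of 31 of the 41 genes, some with several start sites, were found in a RefSeq table for GRCm38.p6, which holds the 250 bases before and the 50 after each start site. The cyclic AMP response element, TGACGTCA, reads the same on both strands and lay in promoters of 3 genes, Chgb, Scg2 and Syn1, and in 1.79% of all 32851 promoters. An E-box of the kind bound by neurogenic basic helix-loop-helix factors (CAGATG or CAGCTG, either strand) lay in 17 of the 41 promoters that these 31 genes have between them and in 30.6% of all. The RE1 motif of the repressor REST (TTCAGCACC, any 2 bases, then GGACAGCGC, with at most 4 mismatches of 18) lay in those of Syn1 and Syt6 and in 0.481% of all. A match of letters is not evidence of binding. The 3 promoters with TGACGTCA are printed 5′ to 3′ up to the base before the start site, in lower case with the motifs in capitals, because the granins Chgb and Scg2 both rose in ganglion cells of the double mutant and because Syn1 carries both motifs. Chgb (chr2:132781522-132781641, plus strand) and Scg2 (chr1:79440027-79440146, minus strand) have the element 72 to 65 and 68 to 61 bases before the start. Syn1 (chrX:20920919-20921168, minus strand) has it 159 to 152 bases before the start, and the RE1 match, the first capitals, at 232 to 213 bases with 2 mismatches.
Chgb: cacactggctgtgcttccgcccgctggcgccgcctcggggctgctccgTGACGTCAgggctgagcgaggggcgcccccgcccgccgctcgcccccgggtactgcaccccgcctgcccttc
Scg2: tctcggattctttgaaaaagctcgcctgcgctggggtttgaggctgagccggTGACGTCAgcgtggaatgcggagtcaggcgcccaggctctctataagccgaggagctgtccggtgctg
Syn1: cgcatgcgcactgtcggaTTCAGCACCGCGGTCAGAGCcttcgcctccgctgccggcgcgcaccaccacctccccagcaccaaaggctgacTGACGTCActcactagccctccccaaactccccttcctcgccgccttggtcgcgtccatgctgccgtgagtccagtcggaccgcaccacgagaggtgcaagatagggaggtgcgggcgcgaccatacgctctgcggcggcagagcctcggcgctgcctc

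Neurogenic cells had already begun to express the set, to a low and uneven extent. The median neurogenic level over the 40 genes was 25.2% of that in the gene's highest fate in the Atoh7 mutant, 15% in the Bax mutant and 23.9% in the double mutant. In progenitors it was 9.94%, 7.35% and 14.1%. The highest fate was taken within each group and differed between groups for some genes. For Unc13a it was cones in both Atoh7 null groups and ganglion cells in the Bax mutant, and for Syt9 the reverse. Syt17 exceeded every fate, at 230%, 244% and 199.8% in the same order, and Syt9 stood at 64.3%, 82.5% and 62.6%. The active zone genes spread widely, with Unc13a at 72.7%, 22.8% and 79.3%, Rims2 at 54.7%, 34.8% and 53.6%, Bsn at 36.9%, 21.9% and 25.8%, Rims1 at 24.7%, 16.4% and 30.5%, and Pclo at 20.2%, 11.9% and 17.9%. Low shares were those of Syt13, at 2.27%, 1.01% and 1.04%, of Chgb, at 3.21%, 1.5% and 3.12%, and of Snap25, at 9.04%, 5.61% and 8.69%. Neurogenic cells lacking Atoh7 also held more of the neurogenic markers, 6418 to 7407 CPM against 3153 and 3582 in the Bax mutant, and of the fate markers: ganglion markers summed to 870 to 1051 CPM against 411 and 432, cone markers to 931 to 1207 against 438 and 519, horizontal markers to 329 to 380 against 158 and 190, and amacrine markers to 95 to 105 against 58.9 and 61.2. Progenitor markers overlapped, at 4522 to 5224 CPM against 4596 and 5015. Their part in these shares, and in the genotype differences in neurogenic cells given further on, was not tested.

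Neurogenic cells were split by whether they held UMIs of photoreceptor, ganglion or amacrine and horizontal fate genes outside the 41. Of these cells 7225 held none, 4042 only photoreceptor genes, 722 only ganglion genes and 224 only amacrine and horizontal genes. Cells with photoreceptor genes exceeded those with none in every library for 6 of 40 genes, Syt2, Syt9, Cplx2, Rab3a, Chga and Chgb, and 10.1% of all genes did so. Cplx2 measured 73.8 and 99 CPM in them in the Atoh7 mutant, 34.1 and 32.8 in the Bax mutant, and 65.5 and 67.5 in the double mutant, against 15.8 to 52.3 CPM in cells with none. It was higher there than in cells with ganglion genes in all 6 libraries. Rab3a measured 42.5 and 23.1, 9.91 and 8.91, and 60.7 and 53 CPM in cells with ganglion genes of the same groups, above the photoreceptor-marked cells in the 4 libraries without Atoh7 and below them in the other two. Cells with ganglion genes exceeded unmarked cells in every library for 4 genes, Snap91, Rab3a, Chga and Scg5. Cells with amacrine and horizontal genes did so for 3, Cplx2, Chga and Chgb. No share of all genes was counted for these smaller groups of cells. Deeper cells are more likely to hold a fate UMI, with a median of 1711 to 7074 UMIs per library in photoreceptor-marked and 1450 to 6834 in unmarked cells.

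Under the horizontal label, 1702 cells held more UMIs of horizontal than of amacrine genes and 585 the reverse. In every library 7 genes were higher on the horizontal side (4.62% of all genes): Syt5, Stx1a, Sv2a, Rab3a, Rab3b, Rab3c and Scg5. Only Cplx2 was higher on the amacrine side (3.15% of all genes). Rab3b measured 73.5 and 153 CPM on the horizontal side in the Atoh7 mutant, 69.5 and 88.9 in the Bax mutant, and 88.4 and 128 in the double mutant, against 5.19 to 36.7 CPM on the amacrine side.

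In ganglion cells of the double mutant, part of the set was lower than in the Bax mutant and part was higher. Which part was larger depended on the scaling. Each contrast was tested with the edgeR quasi-likelihood test on UMI sums per library, with Benjamini-Hochberg adjustment over all genes tested, and called at an adjusted p under 0.05. Levels in these comparisons are CPM scaled by TMM, and a log2 difference of 1 is a doubling. Marker sums, here and above, and the levels of Rest are CPM without TMM. TMM shifts the log2 difference of double mutant minus Bax mutant by -0.53 to -0.63, depending on the label. In double mutant minus Bax mutant, 34 of the 41 genes passed the filter on low counts in ganglion cells, and 15 fell and 8 rose, where 26.5% of all genes tested were lower and 26.2% higher. The median log2 difference was -0.25 against 0.02 over all genes. The split turned with the scaling: with library totals in place of TMM, which shifts every log2 difference by 0.61, 6 were lower and 17 higher. No share of all genes was counted under this or the other alternatives, for any label. Without the shared barcodes 17 were lower and 8 higher, and without double mutant replicate 1, 12 and 8.

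Among vesicle proteins in ganglion cells, 6 of 10 tested fell and 1 rose. Sv2c (chr13:95954594-96132577, minus strand), the SV2 isoform of restricted neuron types, measured 11.1 and 13.7 CPM in the Bax mutant, 1.04 and 0.731 in the double mutant, and 1.44 and 1.32 in the Atoh7 mutant. Both Atoh7 null groups lay far under the Bax mutant libraries, with a log2 difference of -3.76 ± 0.40 (SE, n = 2 and 2, edgeR adjusted p = 6.72e-06) in the double mutant. Synpr (chr14:13284780-13616340, plus strand), encoding the synaptophysin relative synaptoporin, moved the opposite way, with 3.43 and 2.76 CPM in the Bax mutant, 42.8 and 41.7 in the double mutant, and 54.2 and 43.1 in the Atoh7 mutant (log2 difference 3.76 ± 0.19, edgeR adjusted p = 1.17e-08). The groups did not overlap for either gene. Sv2a fell by 1.15 ± 0.20 on the log2 scale, Sv2b by 0.97 ± 0.24 and Rab3b by 0.96 ± 0.18. Rab3a (-0.48 ± 0.10) and the clathrin adaptor gene Snap91 (-0.40 ± 0.14) were also called lower, but with library totals they turned to 0.13 and 0.21.

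The synaptotagmins divided evenly, 4 lower and 4 higher of 9 tested. Syt7, the slow high-affinity sensor, measured 17.6 and 20.7 CPM in the Bax mutant, 3.80 and 4.75 in the double mutant, and 5.75 and 3.95 in the Atoh7 mutant, a fall of 2.16 ± 0.25 in the double mutant. Syt5 fell by 1.76 ± 0.22. Syt13 measured 95.6 and 99.5 CPM in the Bax mutant, 51.8 and 39.5 in the double mutant, and 39.8 and 40.1 in the Atoh7 mutant, and fell by 1.09 ± 0.12. It was thus lower but still present in every Atoh7 null library. Syt4 was called lower (-0.30 ± 0.11) but was called higher with library totals (0.30). Syt9, a fast sensor like Syt1, rose from 6.36 and 4.67 CPM to 19.3 and 16.1 (1.68 ± 0.23), and Syt16 rose by 1.08 ± 0.30, Syt1 by 0.44 ± 0.10 and Syt11 by 0.29 ± 0.10.

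Of the SNAREs and complexins 2 of 5 tested were lower and none higher. Cplx2 fell from 41.7 and 40.9 CPM in the Bax mutant to 25.2 and 22.7 in the double mutant (-0.78 ± 0.13) and measured 27.3 and 26.0 in the Atoh7 mutant. Snap25 was at 137 and 129, 87.0 and 103, and 92.0 and 123 CPM in these groups, with a log2 difference of -0.49 ± 0.12 that turned to 0.12 with library totals. At the active zone Bsn fell by 1.35 ± 0.21 and Unc13a by 0.90 ± 0.18, of 5 tested. Granins went the other way, with 3 of 5 higher and 1 lower: Scg2, a granin precursor of secretoneurin, rose by 1.41 ± 0.28, Chgb by 0.83 ± 0.11 and Chga by 0.49 ± 0.17. Chgb measured 49.4 and 57.3 CPM in the Bax mutant, 89.0 and 101 in the double mutant, and 86.3 and 85.2 in the Atoh7 mutant. Scg3 was called lower (-0.38 ± 0.10), a value that turned to 0.23 with library totals. Scg5, at 158 and 173, 146 and 176, and 150 and 154 CPM, was not called, and nor was Vamp2, at 54.7 and 55.1, 42.4 and 53.8, and 53.2 and 49.0 CPM.

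With library totals Rab3b (-0.35), Sv2b (-0.37), Unc13a (-0.29) and Cplx2 (-0.18) were no longer called. Of the 23 calls, 11 held under all 17 alternatives run: those of Sv2c, Syt7, Syt5, Bsn, Sv2a, Syt13, Synpr, Syt9, Scg2, Chgb and Syt1. Leaving out 1 library ended 6 of the others. Without Bax mutant replicate 1 the calls of Syt11 (0.22), Chga (0.50) and Syt4 (-0.31) were lost, and without Bax mutant replicate 2 those of Syt11 (0.36), Scg3 (-0.36), Snap91 (-0.32), Syt16 (1.04), Chga (0.48) and Syt4 (-0.30). Without double mutant replicate 1, Scg3 (-0.24), Snap91 (-0.26) and Syt4 (-0.26) were lost, and without replicate 2 of that group, Syt16 (1.0) and Chga (0.16).

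Atoh7 mutant minus Bax mutant, which differs in both genes and shares the Bax mutant libraries, gave 14 lower and 5 higher of 34 in ganglion cells (6 and 14 with library totals), where 50% of all genes were called. Sv2c was at -3.16 ± 0.37, Syt7 at -2.03 ± 0.26, Syt13 at -1.29 ± 0.13, Synpr at 3.94 ± 0.19 and Chgb at 0.68 ± 0.11, all called. Snap25 (-0.29), Syt11 (0.16), Syt16 (0.71) and Scg2 (0.30, edgeR adjusted p = 0.495) were not. The ganglion label of the Atoh7 null libraries also held fewer ganglion markers, 9528 to 12094 CPM of 13 genes against 14224 and 14802 in the Bax mutant, and more of the others: cone markers 503 to 711 against 97.2 and 121, horizontal markers 1330 to 1601 against 538 and 542, amacrine markers 189 to 223 against 73.4 and 77.1, progenitor markers 1521 to 1964 against 602 and 801, and neurogenic markers 2254 to 2577 against 1062 and 1104. All 13 ganglion markers were detected, and 1 of the 10 cone markers was at 0 in all 6 libraries. Blood genes ran the other way, at 4.83 to 249 CPM against 970 and 1153. Their part in the differences was not tested. A smaller share of cells with a transcript and less of it per cell cannot be told apart in these sums.

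In neurogenic cells the set moved mostly one way. Of 31 genes tested in double mutant minus Bax mutant, 22 rose and 2 fell, where 23.5% of all genes were higher and 23.8% lower, and the median log2 difference was 0.86 against 0.00. With library totals, which shift every log2 difference in these cells up by 0.59, 26 were higher and 1 lower. Without the shared barcodes 22 and 2 were called, and without double mutant replicate 1, 14 and 2. Every role took part: 4 of 5 granins, 6 of 8 vesicle proteins, 4 of 5 SNAREs and complexins, 3 of 4 active zone genes and 5 of 9 synaptotagmins rose.

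Chga (chr12:102554969-102565028, plus strand), the founding granin, rose most in neurogenic cells, from 3.06 and 3.50 CPM in the Bax mutant to 23.8 and 35.6 in the double mutant, and measured 22.6 and 32.8 in the Atoh7 mutant (3.15 ± 0.26, edgeR adjusted p = 2.89e-06). Scg2 rose by 2.46 ± 0.38, Chgb by 1.84 ± 0.25 and Scg3 by 1.28 ± 0.17, the last from 19.0 and 12.2 CPM to 36.7 and 38.5. The fifth granin, Scg5, was not called. Syt4 rose from 1.25 and 1.38 CPM to 7.46 and 10.7 (2.75 ± 0.36), with 7.24 and 12.2 in the Atoh7 mutant. Other synaptotagmins that rose were Syt2 (2.60 ± 0.56), Syt16 (2.13 ± 0.43), Syt9 (0.89 ± 0.20) and Syt1 (0.62 ± 0.16).

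The vesicle proteins Synpr (2.57 ± 0.30), Rab3c (1.72 ± 0.27), Syn1 (1.43 ± 0.34), Snap91 (0.98 ± 0.31), Syp (0.78 ± 0.23) and Rab3a (0.65 ± 0.14) rose, and so did the SNARE and complexin genes Stx1a (1.04 ± 0.28), Snap25 (0.86 ± 0.17), Vamp2 (0.58 ± 0.15) and Cplx2 (0.39 ± 0.11). Snap25 measured 13.8 and 10.4 CPM in the Bax mutant, 20.2 and 23.6 in the double mutant, and 21.4 and 26.2 in the Atoh7 mutant, without overlap. At the active zone Unc13a (1.18 ± 0.19), Rims2 (0.69 ± 0.18) and Pclo (0.59 ± 0.19) rose. The 2 that fell were Syt7 (-1.72 ± 0.39) and Bsn (-1.01 ± 0.32), which were also lower in ganglion cells. Syt11, at 194 and 198, 192 and 194, and 187 and 161 CPM, was not called, nor was Scg5, at 61.2 and 55.9, 55.3 and 68.3, and 61.0 and 61.3 CPM.

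Of these 24 calls, 11 held under all alternatives: Chga, Syt4, Synpr, Scg2, Syt16, Chgb, Rab3c, Scg3, Unc13a, Snap25 and Syt7. Without Bax mutant replicate 1, the calls of Pclo (0.65), Snap91 (1.08), Bsn (-0.80), Cplx2 (0.35) and Rims2 (0.62) were lost, and without Bax mutant replicate 2 those of Syp (0.67), Pclo (0.53), Stx1a (0.86), Syt1 (0.46), Snap91 (0.87), Vamp2 (0.47) and Cplx2 (0.44). Without double mutant replicate 1, Syt2 (1.84), Syp (0.70), Syn1 (1.14), Syt9 (0.59), Syt1 (0.38), Snap91 (0.90), Cplx2 (0.31) and Rims2 (0.58) were lost, and without its replicate 2, Pclo (0.47), Snap91 (1.03) and Bsn (-0.64). The Atoh7 mutant minus the Bax mutant gave 20 genes that rose and 1 that fell, where 47.1% of all genes were called. There Chga was at 3.07 ± 0.26, Syt4 at 2.88 ± 0.35 and Scg3 at 1.01 ± 0.17.

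**Figure D3:**
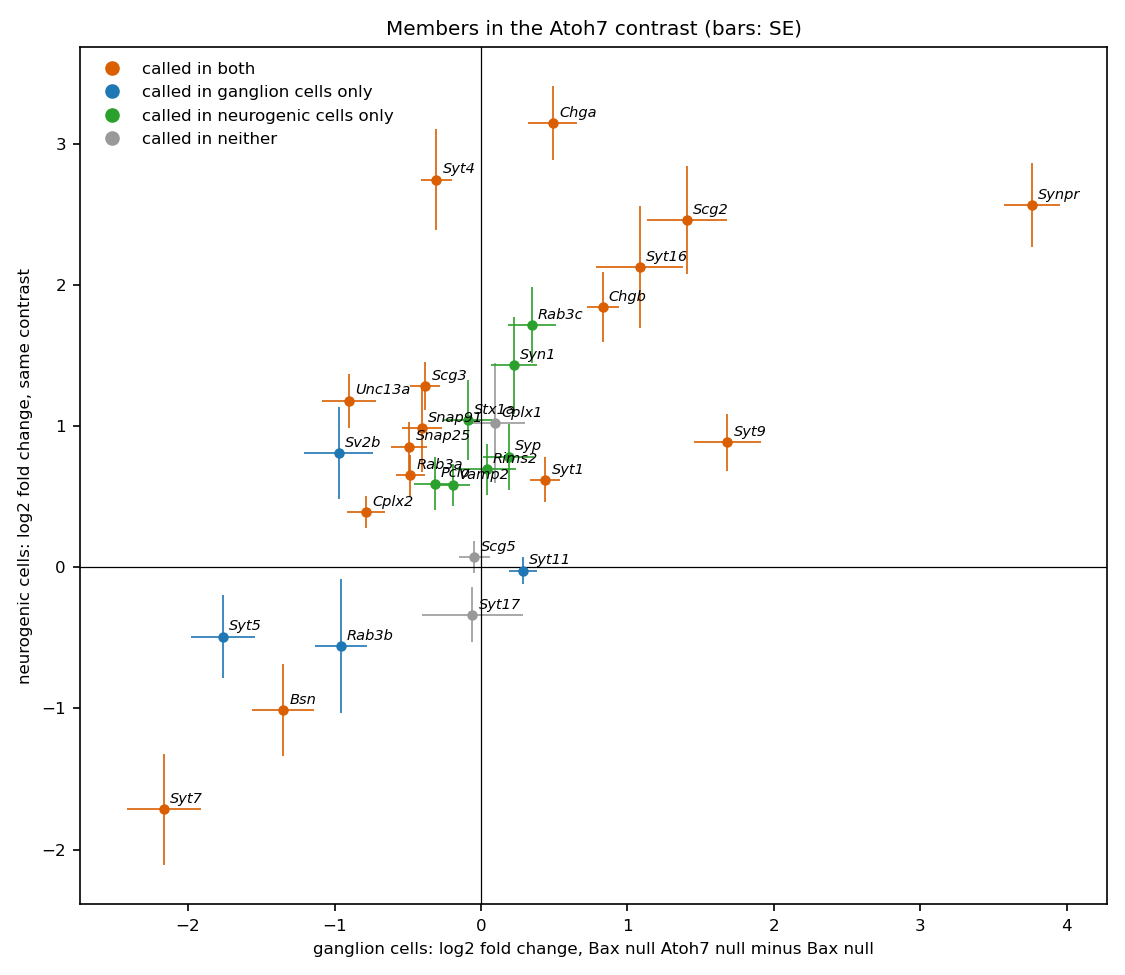
Log2 difference, double mutant minus Bax mutant, of the 30 genes tested under both labels: ganglion cells on the horizontal axis, neurogenic cells on the vertical axis, bars SE, colours by where the gene was called. Syt7 and Bsn are low in both, Synpr, Scg2 and Chgb high in both, and Syt4, Unc13a, Scg3, Snap25, Snap91, Rab3a and Cplx2 are negative in ganglion cells and positive in neurogenic cells.

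Fewer of the genes, and a smaller share of all genes, were called in cones and under the horizontal label. These labels had the smallest UMI sums. In cones 3 of 23 tested rose and 1 fell (12.5% and 15.6% of all genes), with 14 higher and 0 lower with library totals, and 6 and 1 with offsets from cyclic loess, which removes a shift that depends on the level. Chgb rose from 326 and 296 CPM in the Bax mutant to 505 and 594 in the double mutant, and measured 465 and 639 in the Atoh7 mutant (0.82 ± 0.16). Syt4 rose by 2.40 ± 0.53 from 2.94 and 3.36 CPM, and Sv2b by 0.88 ± 0.27. Scg5 was called lower at -0.50 ± 0.13, but stood at 0.06 with library totals. The complexin that was highest in cones, Cplx2, was not called, at 297 and 288, 278 and 285, and 313 and 338 CPM, and Snap25 was not either, at 218 and 208, 231 and 279, and 250 and 291 CPM. The Chgb and Syt4 calls held under all alternatives. Without Bax mutant replicate 2, Sv2b (0.69) and Scg5 (-0.41) were lost and 2 calls were left, without double mutant replicate 1 Scg5 (-0.39) was lost, and without its replicate 2 Sv2b (0.68). For Atoh7 mutant minus Bax mutant the counts were 3 and 1 (12 and 0 with library totals), where 27.5% of all genes were called, with 2 calls left without Atoh7 mutant replicate 2 and 1 without Bax mutant replicate 2. The cone label of the Atoh7 null libraries held 1907 to 2284 CPM of progenitor markers against 1112 and 1127 in the Bax mutant, 2052 to 2214 against 1748 and 1809 of neurogenic, 893 to 1034 against 731 and 749 of amacrine, 677 to 843 against 522 and 567 of horizontal and 13.5 to 268 against 1456 and 1703 of blood markers. Ganglion and cone markers overlapped, at 1728 to 2199.9 against 1833 and 1987 and at 4656 to 5924 against 4851 and 4935. These sums are CPM without TMM, which shifts double mutant minus Bax mutant by -0.55 in cones. In the double mutant the rises of neurogenic, amacrine and horizontal markers were smaller than that shift. The part of these marker lists in cones was not tested.

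Under the horizontal label 5 of 27 rose and 3 fell (13.5% and 15.7% of all genes), with 16 higher and 1 lower with library totals, and 2 and 3 with loess offsets. Chgb rose from 159 CPM in both Bax mutant libraries to 238 and 261 (0.65 ± 0.13) and Syt4 from 1.82 and 1.71 to 12.5 and 10.4 (2.63 ± 0.63). These 2 calls held under all alternatives. Snap91 (1.80 ± 0.57), Syt9 (1.31 ± 0.45) and Sv2b (1.24 ± 0.42) rose as well. Bsn (-1.48 ± 0.36), Syp (-1.44 ± 0.43) and Cplx2 (-0.88 ± 0.20) fell, the last from 73.8 and 93.8 CPM to 50.1 and 40.4. Rab3b, the gene that marked this label, was not called, at 71.1 and 88.7, 55.4 and 84.9, and 50.4 and 95.1 CPM. Without Bax mutant replicate 1, 5 calls were left, with Sv2b (1.28), Syt9 (1.25) and Snap91 (1.66) lost. Without Bax mutant replicate 2, 3 of the 8 were still called and Scg3 (-0.56) was called in addition, with Syp (-1.30), Sv2b (1.19), Syt9 (1.37), Snap91 (1.97) and Cplx2 (-0.70) lost. Syp (-1.23) and Syt9 (0.98) were lost without double mutant replicate 1, Sv2b (0.81) and Snap91 (1.63) without its replicate 2, and Syt9 (1.29) without Atoh7 mutant replicate 2. For Atoh7 mutant minus Bax mutant 8 rose and 4 fell (14 and 0 with library totals), where 30.2% of all genes were called, among them Chgb (0.95 ± 0.13), Snap25 (0.63 ± 0.16) and Sv2a (1.63 ± 0.34). Of these calls 6 were left without Atoh7 mutant replicate 2, 5 without Bax mutant replicate 1 and 3 without Bax mutant replicate 2. The horizontal label of the Atoh7 null libraries held 2523 to 3013 CPM of horizontal markers against 1624 and 1668 in the Bax mutant, and 1339 to 1757 against 1166 and 1206 of amacrine markers. Progenitor markers (2104 to 2901 against 1750 and 1839) and ganglion markers (2683 to 3212 against 2454 and 2573) were higher too, cone markers (258 to 301 against 364 and 420) and blood genes (3.63 to 240.0 against 1179 and 2035) lower, and neurogenic markers overlapped. These sums are CPM without TMM, which shifts double mutant minus Bax mutant by -0.53 under this label. In the double mutant the rises of amacrine and ganglion markers were smaller than that shift. The part of these lists was not tested.

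Progenitors, in which most of the set was low, also moved mostly upward. Of 37 genes tested 16 rose and 2 fell (26.8% and 27.1% of all genes), with a median log2 difference of 0.51 against 0.01, and 12 and 4 with loess offsets. Chga rose from 0.135 and 0.169 CPM in the Bax mutant to 1.61 and 1.15 in the double mutant (3.17 ± 0.39), Synpr by 2.36 ± 0.31, Chgb by 2.09 ± 0.46, Scg3 by 1.57 ± 0.20 and Snap25 by 1.45 ± 0.20. Rab3b (-1.63 ± 0.43) and Syt7 (-0.93 ± 0.18) fell. The count fell from 18 to 11 without Bax mutant replicate 1, where Syt4 (0.98), Sv2a (0.77), Rims2 (0.50), Vamp2 (0.24), Snap91 (0.65), Scg5 (0.32) and Syt1 (0.30) were lost, and was 17 without the shared barcodes. Chgb (1.2), Sv2a (0.84), Syt4 (0.80), Rims2 (0.55) and Syt1 (0.14) were lost without double mutant replicate 1, Rab3c (1.15), Rims2 (0.69), Snap91 (0.38), Scg5 (0.23) and Syt1 (0.21) without Bax mutant replicate 2, Snap91 (0.39) and Scg5 (0.17) without double mutant replicate 2, and Syt1 (0.26) without either Atoh7 mutant replicate. The other contrast, Atoh7 mutant minus Bax mutant, had 13 that rose and 2 that fell (10 and 4 with loess offsets), where 53.1% of all genes were called, with 8 calls left without Atoh7 mutant replicate 2 and 9 without either Bax mutant replicate. Free RNA from other cells can give such low levels. Of 8 ganglion cell genes, progenitors held 0.296% to 0.992% of the ganglion level for Pou4f2, 0.196% to 0.691% for Nefl, 0.311% to 0.824% for Nefm, 0.211% to 1.13% for Sncg and 0.971% to 2.45% for Pou4f1. The other three reached higher, with 0% to 8.04% for Pou4f3, 2.64% to 10.3% for Eya2 and 22.4% to 65.2% for Rbpms. The shares of 1.02% to 5.34% for Snap25, 0.990% to 4.93% for Scg3 and 0.554% to 5.95% for Chga overlapped with some of these. In every Atoh7 null library these members lay above Pou4f2, Nefl, Nefm, Sncg and Pou4f1, which reached at most 2.45%, and below Rbpms. In the Bax mutant libraries they overlapped with those genes. The ganglion level is not the highest for Snap25, which peaked in cones. Progenitors of the Atoh7 null libraries also held more of several marker lists, 9044 to 10499 CPM of progenitor markers against 7512 and 7544 in the Bax mutant, 762 to 798 against 423 and 444 of neurogenic, 176 to 209 against 106 and 114 of ganglion, 59.2 to 77.6 against 26.2 and 32.9 of cone, 78.1 to 85.2 against 34.0 and 34.1 of horizontal and 70.3 to 86.4 against 37.5 and 40.7 of amacrine markers. Blood genes were lower, at 9.61 to 239.8 against 922 and 1077. These sums are CPM without TMM, which shifts double mutant minus Bax mutant by -0.63 in progenitors. In the double mutant the rise of progenitor markers was smaller than that shift. The part of free RNA and of these lists was not tested.

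No difference with Bax was called for these genes. In double mutant minus Atoh7 mutant the edgeR test called 0 of the genes under each of the 5 labels, and DESeq2 also called 0 under each. At an unadjusted p under 0.05 there were 5 under the horizontal label, 1 in cones and 2 under each of the others. Of all genes 2.34% were called in ganglion cells, 1.77% in neurogenic cells, 1.46% in cones, 1.61% under the horizontal label and 2.01% in progenitors. Cplx2 in neurogenic cells came closest, with 45.3 and 41.9 CPM in the double mutant against 55.2 and 64.3 in the Atoh7 mutant (-0.45 ± 0.11, edgeR adjusted p = 0.0799), and 1 gene was called lower there without double mutant replicate 1. Scg2 in ganglion cells measured 10.4 and 10.6 CPM against 3.36 and 5.92 (1.10 ± 0.34, edgeR adjusted p = 0.138). The library labelled double mutant replicate 1 held more Bax than its partner, which bears on this contrast.

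Because the libraries differed as wholes, each fate was also set against the progenitors of its own library, and the change of that difference with genotype was tested. By this measure the rise of many release genes from progenitor to ganglion cell was smaller in the double mutant than in the Bax mutant. Of 39 genes tested 19 were lower and 4 higher, where 7.53% of all genes were lower and 8.15% higher, with a median log2 difference of -0.76 against 0.03. The largest falls were of Sv2c (-2.71 ± 0.62), Chga (-2.67 ± 0.45), Unc13a (-2.08 ± 0.30), Sv2a (-2.07 ± 0.31), Scg3 (-1.96 ± 0.20), Snap25 (-1.93 ± 0.22), Syt5 (-1.79 ± 0.24) and Syt13 (-1.70 ± 0.42). Syt4 (-1.37), Chgb (-1.26), Syt7 (-1.24), Bsn (-1.17), Stx1a (-1.03), Snap91 (-0.90), Pclo (-0.76), Rab3a (-0.59), Cplx2 (-0.57), Vamp2 (-0.50) and Scg5 (-0.30) were called lower too. Syt9 (1.58 ± 0.25), Synpr (1.44 ± 0.36), Syt11 (0.34 ± 0.07) and Scg2 (1.56 ± 0.46) were higher, but Scg2 turned to -1.02 with neurogenic cells as the reference. Under that reference Syt13 (-0.12), Sv2a (-1.21), Bsn (-0.31), Syt7 (-0.46) and Scg5 (-0.11) were also not called. All 5 granins were called, 4 of them lower. For 14 of the 19 lower calls and 3 of the 4 higher ones the progenitor level was under 5 CPM in a library. The exceptions were Cplx2, Rab3a, Scg5, Syt5 and Vamp2 among the lower and Syt11 among the higher. All these values also carry any change in progenitors given above, where Scg5 and Vamp2 were among the genes that rose.

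**Figure D4:**
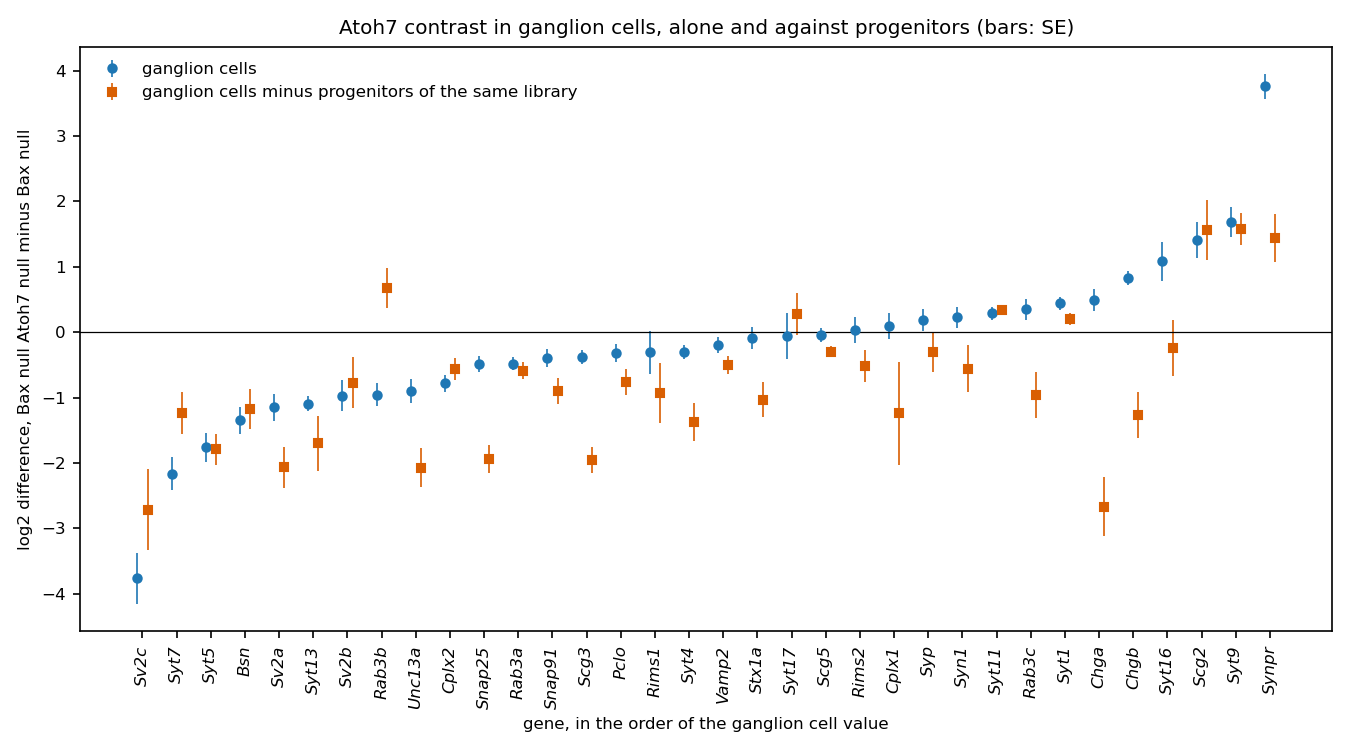
Log2 difference of double mutant minus Bax mutant for the 34 genes tested in ganglion cells, ordered by that value (circles), beside the same contrast after setting ganglion cells against progenitors of the same library (squares); bars are SE. Chga and Chgb lie above 0 as circles and below 0 as squares.

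Of these 23 calls, 8 held under all alternatives, Snap25, Scg3, Chga, Unc13a, Syt5, Snap91, Syt9 and Syt11. Without double mutant replicate 1, 13 of the 23 were still called and Rab3b (1.41) was called in addition, with Scg2 (1.43), Scg5 (-0.29), Chgb (-0.26), Stx1a (-0.81), Rab3a (-0.33), Bsn (-1.09), Vamp2 (-0.34), Cplx2 (-0.40), Sv2c (-2.63) and Syt4 (-1.04) lost. Without Bax mutant replicate 2, Scg2 (1.25), Syt13 (-1.22), Scg5 (-0.21), Chgb (-0.80) and Stx1a (-0.98) were lost, and without Bax mutant replicate 1, Pclo (-0.66), Synpr (1.40) and Vamp2 (-0.43). Pclo (-0.65) and Syt7 (-1.20) were lost without double mutant replicate 2. In Atoh7 mutant minus Bax mutant, 14 were lower and 3 higher, where 15.2% of all genes were called, with Snap25 at -1.90 ± 0.21, Scg3 at -1.88 ± 0.21 and Syt13 at -0.82 ± 0.55, the last not called.

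In neurogenic cells against progenitors, 6 of 38 genes were higher and none lower (4.21% and 3.25% of all genes): Scg2 (2.61 ± 0.54), Syt4 (1.68 ± 0.44), Rab3b (1.12 ± 0.36), Syt9 (0.78 ± 0.22), Cplx2 (0.59 ± 0.13) and Rab3a (0.55 ± 0.17). Most of the rise in neurogenic cells, that of Chga (-0.01) included, was not called beyond that of the progenitors beside them. Of the 6 higher calls, 4 had a progenitor level under 5 CPM in a library: Rab3b, which fell in progenitors, Scg2, Syt4 and Syt9. No call held under every alternative run. With DESeq2 0 were called, without Bax mutant replicate 1 there were 2, without Bax mutant replicate 2 there was 1, and without double mutant replicate 1 there were 3. In Atoh7 mutant minus Bax mutant 7 were higher, where 8.35% of all genes were called, with 3 left without Atoh7 mutant replicate 2 and 2 without Bax mutant replicate 2.

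In cones against progenitors 5 genes were lower and 1 higher (1.85% and 3.05% of all genes). Chga (-2.68 ± 0.56), Scg3 (-1.66 ± 0.25), Chgb (-1.24 ± 0.31), Snap25 (-1.14 ± 0.22) and Scg5 (-0.69 ± 0.14) were lower, and Syt11 (0.4 ± 0.12) higher, a call that library totals, size factors from the median ratio and loess offsets each ended. Under the horizontal label 6 were lower and 1 higher (1.39% and 1.70% of all genes): Chga (-2.60 ± 0.57), Scg3 (-1.91 ± 0.25), Rab3c (-1.59 ± 0.44), Chgb (-1.41 ± 0.30), Snap25 (-1.15 ± 0.29) and Scg5 (-0.63 ± 0.14) were lower, and Rab3b (1.44 ± 0.30) higher. Of the 11 lower calls, 9 had a progenitor level under 5 CPM in a library. So did the higher call of Rab3b, which fell in progenitors and was not called under the horizontal label itself. Without double mutant replicate 1 there were 3 calls left in cones and 2 under the horizontal label, and without Bax mutant replicate 2, 4 under the horizontal label. Leaving out the shared barcodes left 5 and 3. In Atoh7 mutant minus Bax mutant, 5 were lower and 1 higher in cones (5.30% of all genes called) and 8 lower under the horizontal label (2.65%), with 3 of the 8 left under the horizontal label without Atoh7 mutant replicate 1, where Rab3b (2.15) and Sv2b (2.49) were called in addition, 4 without its replicate 2, 2 without Bax mutant replicate 1 and 3 without its replicate 2.

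Other genes of secretion, taken from 4 further lists, gave a mixed picture in ganglion cells in double mutant minus Bax mutant. Among all genes tested 26.2% were higher and 26.5% lower, with a median log2 difference of 0.02. Of 65 other release genes tested 13 rose and 13 fell, with a median of 0.05. Large changes were those of the synuclein Sncg (-3.94 ± 0.15), the complexin Cplx3 (2.40 ± 0.19) and Ap2m1 (-2.21 ± 0.12), the clathrin adaptor subunit of vesicle retrieval, which was lower by 1.84 to 2.21 under all 5 labels. Of 13 genes of granule cargo and processing 7 fell and 4 rose, led by the neuropeptides Tac1 (-4.68 ± 0.37) and Gal (-3.35 ± 0.13). Of 12 genes of transmitter loading and synthesis 6 rose and 5 fell: the glycine transporter gene Slc6a9 (4.23 ± 0.38) was among those that rose, and the vesicular glutamate transporter gene Slc17a6 (-2.62 ± 0.29), which loads the transmitter of ganglion cells, and Th (-2.97 ± 0.17) fell. Of 12 genes of the repressor REST and its partners, which silence release genes outside neurons, 5 rose and 1 fell, with Rest at 1.14 ± 0.26 and its corepressor Rcor2 at 1.84 ± 0.09. Rest itself measured 66.9 to 162 CPM in progenitors and 3.76 to 17.1 CPM in ganglion cells.

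In neurogenic cells, where 23.5% of all genes were higher and 23.8% lower with a median of 0.00, 24 of 65 other release genes rose and 7 fell, with a median of 0.25, led by Sncb (3.10 ± 0.31) and Sncg (-2.86 ± 0.39). The transmitter list had 6 of 9 higher and none lower, with Slc32a1, the vesicular transporter of GABA and glycine, at 2.92 ± 0.61. Granule cargo had 3 higher and 4 lower of 10, with Gal at -6.91 ± 0.15. Of the REST list 4 of 12 rose and 1 fell, with Rcor2 at 1.57 ± 0.10.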

How the data were processed

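The deposited table held UMI counts of 27998 genes in 93128 cells, which the authors made from 10x Genomics libraries with Cell Ranger 1.2.1 and mm10, per the submitters' processing notes. Other filters of cells before deposit are not given in the sources used here. The 67050 cells of the 6 samples were kept, and 26078 cells of 2 further libraries in the table were not used. Cell types are the authors' deposited labels. The 41 genes and the lists beside them were chosen with earlier results of these data known.

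Counts were summed per library and label. Genes were filtered with filterByExpr, scaled by TMM and tested with edgeR 4.0.16 (R 4.3.3), 6 libraries in 1 fit, with Benjamini-Hochberg adjusted p under 0.05 as a call; the code was tested on simulated data. Each SE was derived as the size of the log2 difference divided by the square root of the F statistic, so it is rough, above all near 0. The within-library difference is an interaction of label and genotype with the library as a block. Named genes were every called member (at most 25 per contrast and label), uncalled members of at least 50 CPM with their values, and up to 4 per further list by fold. Levels by label are CPM without a test, counted over members with at least 50 UMIs. An exact test of 2 against 2 libraries cannot go below p = 0.33, so none was used.

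Doublets were not removed in the values given. As an alternative, cells were scored with Scrublet in scanpy 1.11.5 and those scoring in the top 8% of their library (5364 cells) were left out. Other alternatives were DESeq2 1.42.0, median-ratio size factors, no filter, counts thinned to the smallest total, cells under 1000 UMIs left out, neurogenic cells as reference, a replicate block and each library left out; library totals, cyclic loess offsets (limma 3.58.1) and leaving out shared barcodes were chosen after seeing the data. Depth was 22463515 to 66594431 UMIs per library. Floors cover counting error only, whereas each SE also carries the spread between libraries estimated in the fit.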

Additional observations from a re-analysis of the deposited data

Results flagged for a closer look

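Of the genes called in both ganglion and neurogenic cells for double mutant minus Bax mutant, 7 had effects of opposite sign. Values are the ganglion effect minus the neurogenic effect on the log2 scale ± SE, from 1 edgeR model with the library as a block. Since the 7 were chosen for opposite calls in the same libraries, these values describe that choice, and no test is given. Syt4, of dense core granules, had the largest at -3.03 ± 0.28. The priming factor gene Unc13a was at -2.07 ± 0.27 and the granin Scg3 at -1.67 ± 0.14. The clathrin adaptor gene Snap91 was at -1.39 ± 0.34 and the SNARE gene Snap25 at -1.34 ± 0.15. Cplx2, a complexin, was at -1.16 ± 0.15 and the GTPase gene Rab3a at -1.13 ± 0.15. The ganglion effects of Syt4, Scg3, Snap91, Snap25 and Rab3a turned positive with library totals, whereas those of Unc13a and Cplx2 stayed negative and lost their call.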

How the results depend on the processing

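Counts below are genes of the list that were called, for double mutant minus Bax mutant unless the Atoh7 mutant is named. With library totals in place of TMM, the ganglion differences of Snap25 (0.12), Rab3a (0.13), Scg3 (0.23), Snap91 (0.21) and Syt4 (0.30), the cone difference of Scg5 (0.059) and, for Atoh7 mutant minus Bax mutant, the ganglion difference of Scg3 (0.0996) changed sign. With neurogenic cells as the reference, the within-library differences of Scg2 in ganglion cells (-1.02) and, for the Atoh7 mutant, Sv2b in cones (-0.0603) did. These are the 9 sign changes among the called genes. Counts moved by over 1.5 times in these cases. In cones 4 became 2 with DESeq2, 7 without doublets, 14 with library totals and 7 with loess offsets. Under the horizontal label 8 became 2 with DESeq2, 5 with thinned counts, 17 with library totals and 5 with loess offsets, and in progenitors 18 became 30 with library totals. For Atoh7 mutant minus Bax mutant, cones had 2 with DESeq2 and 12 with library totals, the horizontal label 2 with DESeq2, and progenitors 8 with thinned counts and 27 with library totals. For Bax, no filter gave 1 in neurogenic cells. The within-library counts with DESeq2 were 14 in ganglion cells, 0 in neurogenic cells and 3 in cones, and for the Atoh7 mutant 1 in neurogenic cells, 3 in cones and 2 under the horizontal label. Under the horizontal label leaving out shared barcodes gave 3 in either contrast, and for the Atoh7 mutant no filter and no doublets each gave 4. The cause of these changes was not tested.

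With 1 library left out, the counts ranged from 18 to 23 in ganglion cells, 16 to 24 in neurogenic cells, 2 to 5 in cones, 4 to 8 under the horizontal label and 11 to 19 in progenitors. In the same order of labels they ranged from 16 to 21, 16 to 21, 1 to 5, 3 to 13 and 8 to 17 for the Atoh7 mutant, and from 0 to 1 for Bax. Within-library counts ranged from 14 to 23 in ganglion cells, 1 to 7 in neurogenic cells, 3 to 6 in cones and 2 to 7 under the horizontal label, and for the Atoh7 mutant from 14 to 19, 2 to 7, 5 to 7 and 2 to 8. Deviations of same-numbered libraries correlated over 0.1 in only 1 of the 3 pairs of groups (0.02, 0.39 and -0.16 over 5737 genes), so the numbers were not taken to pair them. With the replicate block, the 5 labels had 24, 24, 4, 8 and 19 calls, and 20, 20, 4, 12 and 16 for the Atoh7 mutant, 0 for Bax under all 5, and within libraries 23, 5, 6 and 7, and 19, 7, 6 and 7. Depth limits the cones and the horizontal label most, where 18 and 14 of the 41 genes did not pass the filter.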
